A study of Saccharomyces cerevisiae with 83 samples.

Results

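Plasmid barcodes were followed for the yeast genes that encode a set of cell wall mannoproteins and PIR proteins (proteins with internal repeats). The set was given by systematic name and holds 8 genes, of which CCW12 (YLR110C), CWP1 (YKL096W), TIR1 (YER011W) and SED1 (YDR077W) encode mannoproteins attached through a GPI remnant, and PIR1 (YKL164C), HSP150 (YJL159W), PIR3 (YKL163W) and CIS3 (YJL158C) encode PIR proteins. Of these, 7 had a row in both count tables, out of 4817 genes in the tables, and PIR3 was not analysed here. CCW12 was chosen by its readout, a barcode change that differed between strains in these very libraries, so its values are a description and carry no test. The other 6 genes were tested for whether they changed with it.

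The yeast wall is a layer of glucan and chitin covered by mannoproteins. GPI mannoproteins pass through the secretory pathway on a lipid anchor and are then joined to glucan through a remnant of that anchor, whereas PIR proteins are joined to glucan directly through their repeats. Both kinds carry many O-linked mannose chains, and PIR proteins are trimmed by the Golgi protease Kex2.

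The cells were haploids of the YPS1009 background, a North American isolate, transformed with a library of centromeric plasmids that each carry 1 gene and a barcode, so a barcode followed cells with added copies of that gene. The study set euploid strains beside aneuploid ones, whose added chromosome was XV, XII, VII or IV, in cells that had or lacked SSD1, an RNA-binding protein. The labels give strain numbers (AGY1611 to AGY1614 and AGY1859 to AGY1863) but do not pair a number with a karyotype or with SSD1, so strains are named by number alone. Whether CCW12 (on chromosome XII) and SED1 (on chromosome IV) lie on the extra chromosome of a given strain therefore was not tested; CWP1 and PIR1 lie on chromosome XI, TIR1 on V, and HSP150 and CIS3 next to each other on X. All 9 strains grew at 30 °C in medium without histidine with nourseothricin (100 mg per L), which holds the extra chromosome, and G418 (200 mg per L), which holds the plasmid. Cells were sampled at the start from the frozen stock (generation 0) and after 5 or 10 generations.

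Batch 1 held AGY1611, AGY1612, AGY1613 and AGY1614 at generations 0 and 10 with 4 replicates (A to D). Batch 2 held AGY1611, AGY1613, AGY1859, AGY1860, AGY1862 and AGY1863 at generations 0 and 10 with 3 replicates (1 to 3); AGY1611, AGY1613 and AGY1860 also had generation 5, and AGY1861 had generations 0 and 5. Batch 1 libraries held 3237303 to 8351355 counts at generation 0 and 457053 to 2993246 at generation 10. Batch 2 libraries held 1298424 to 7559499 counts at generation 0, 452054 to 5409233 at generation 5 and 561486 to 3506174 at generation 10. Levels are given in CPM after TMM scaling, which adjusts the library size, so they are not plain shares of the library's counts. The reads carry no molecular identifiers, so counting intervals cover counting error only.

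The replicates were not equally independent. Per the series' design text, the 4 replicates of batch 1 came from 2 transformations of the library. Across all names, generation 10 changes of A with B or of C with D had a mean Spearman correlation of 0.936 (8 pairs), against 0.486 for A or B with C or D (16 pairs). In the strains present in both batches, replicate 2 of batch 2 with A or B and replicate 3 with C or D had a mean of 0.941 (8 pairs), against 0.414 for the other pairs (16 pairs). P-values that treat A to D as separate are thus too small if A with B and C with D share a transformation. Batch 2 is also not fully separate from batch 1 for AGY1611 and AGY1613. The main totals of calls that include batch 1 are therefore also given for pooled pairs. In these, the counts of A and B, and those of C and D, were added before the fit.

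CCW12 encodes one of the most abundant small mannoproteins of the wall, found where the wall is growing. At generation 0 its barcode was nearly the same in every library, from 252.5 to 278.6 CPM in batch 1 (16 libraries) and from 234 to 275.5 CPM in batch 2 (21 libraries). By generation 10 its level ranged from 0.832 to 400 CPM, depending on the strain.

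In AGY1611 of batch 1, CCW12 stood at 315, 331.4, 282.4 and 212.1 CPM in replicates A to D at generation 10, against 270.4 ± 5.51 CPM (SD, n = 4) at generation 0. In AGY1612 it stood at 151.7, 133.0, 221.5 and 203.2 CPM, against 268.0 ± 11.7 CPM (SD, n = 4). AGY1611 straddled its starting level, and every AGY1612 culture ended below its own. In AGY1613 the generation 10 values were 15.23, 9.43, 12.59 and 22.6 CPM, against 268.6 ± 7.21 CPM (SD, n = 4). In AGY1614 they were 32.32, 9.965, 13.33 and 36.83 CPM, against 266.4 ± 5.94 CPM (SD, n = 4). The AGY1613 and AGY1614 values did not overlap those of AGY1611 or AGY1612. The fitted log2 changes were 0.08 ± 0.23 (SE) in AGY1611, -0.60 ± 0.23 in AGY1612, -4.15 ± 0.27 in AGY1613 and -3.74 ± 0.29 in AGY1614. The small value of AGY1611 turned to -0.15 with scaling by library size alone.

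In batch 2, CCW12 at generation 10 stood at 67.54, 144.2 and 128.2 CPM in AGY1611 (replicates 1 to 3) and at 3.355, 8.846 and 10.34 CPM in AGY1613. AGY1859 had 0.832, 1.88 and 11.73 CPM, from only 1, 4 and 22 counts. AGY1863 had 9.042, 1.247 and 2.737 CPM, from 11, 2 and 10 counts. The 4 lowest libraries of the gene were in these 2 strains, and the ratios of libraries with 1 to 4 counts have wide intervals. Replicate 1 of AGY1859 kept 0.355% of its starting level (95% exact Poisson interval 0.00897% to 1.98%), replicate 2 of AGY1863 kept 0.486% (0.0588% to 1.76%) and replicate 1 of AGY1613 kept 1.34% (0.162% to 4.85%). AGY1862 had 27.79, 24.35 and 31.7 CPM, and AGY1860 had 400, 211.6 and 267.2 CPM. Of the 6 strains, AGY1860 alone had a replicate above the batch 2 generation 0 range. Fitted log2 changes were -1.19 ± 0.38 (SE) in AGY1611, -5.02 ± 0.48 in AGY1613, -5.61 ± 0.49 in AGY1859, 0.22 ± 0.37 in AGY1860, -3.17 ± 0.42 in AGY1862 and -6.0 ± 0.51 in AGY1863. Without replicate 3 of generation 10, the AGY1859 value was -7.35. Without replicate 1 of generation 10, the AGY1860 value was -0.07, so its sign rests on that library.

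**Figure D1:**
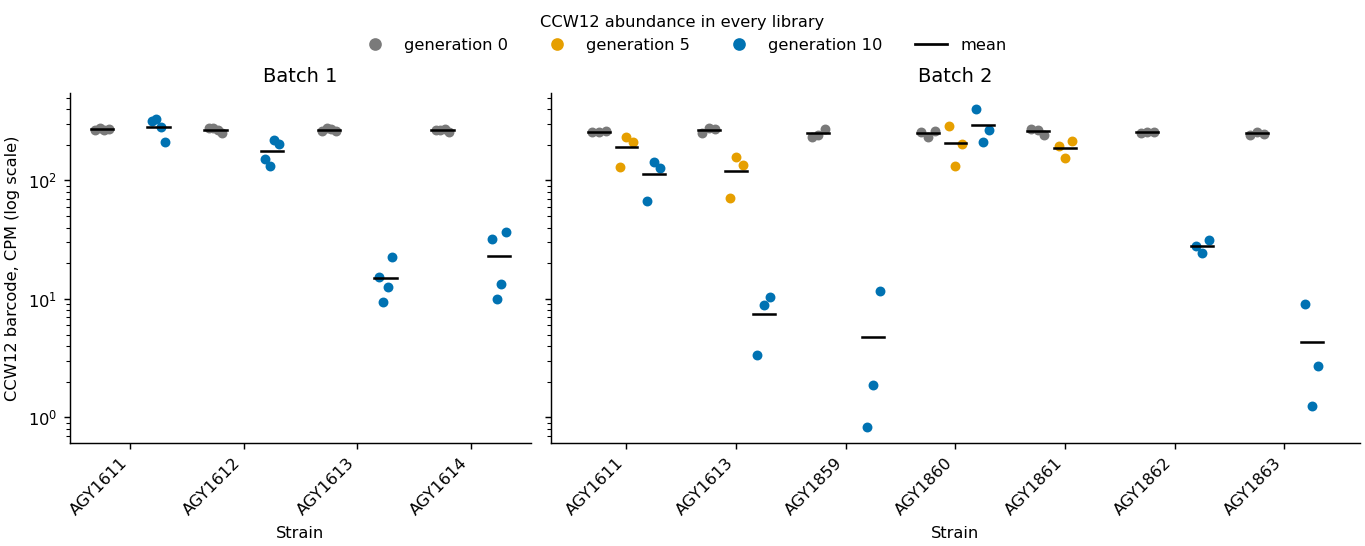
CCW12 barcode level (CPM, log scale) in each library of both batches, by strain and generation; points are libraries and lines are group means. All generation 0 libraries sit between 234 and 278.6 CPM, while generation 10 libraries run from 0.832 CPM in AGY1859 to 400 CPM in AGY1860.

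For the other 6 genes a call means an adjusted p under 0.05 in edgeR's quasi-likelihood test, with Benjamini-Hochberg adjustment over all names tested in that comparison. In batch 1 the genes made 8 calls in 24 tests, 7 lower and 1 higher. By strain, 2 of 6 genes were called in AGY1611 (47.8% of all names were, 23.8% lower and 24% higher), 1 of 6 in AGY1612 (43.1% of all names, 25.9% lower), 2 of 6 in AGY1613 (40.8%, 21.3% lower) and 3 of 6 in AGY1614 (53.1%, 28.3% lower). Counting both directions, the share of the 6 genes was below that of all names in each strain. Counting lower calls alone, it was 1 of 6 in AGY1611 and AGY1612 (16.7%), below all names. It was 2 of 6 in AGY1613 (33.3%) and 3 of 6 in AGY1614 (50%), above all names. With 6 genes, 1 call alone makes up 16.7%. Pooled pairs, with 2 samples per group, gave 2 of the 8 calls, both of PIR1. These were in AGY1612 (adjusted p = 0.0106) and AGY1614 (0.0173), so AGY1613 kept none. Shares of all names are from the main edgeR fit alone. Counts of calls in pooled pairs, in DESeq2 and in other alternatives therefore have no share beside them.

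In batch 2 the genes made 4 calls in 36 tests, 2 lower and 2 higher. AGY1859 had 2 of 6 (14.5% of all names were called, 9.35% lower and 5.18% higher) and AGY1863 had 2 of 6 (17.5%, 13.5% lower and 4.04% higher), in both SED1 lower and HSP150 higher. In AGY1611 (18.9% of all names), AGY1613 (11.4%), AGY1860 (21%) and AGY1862 (18.2%) edgeR called 0 of 6. At an unadjusted p under 0.05 there were 8 such tests in batch 2, and DESeq2 called 6, adding PIR1 in AGY1611 (adjusted p = 0.0373) and SED1 in AGY1613 (adjusted p = 0.0162).

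**Figure D2:**
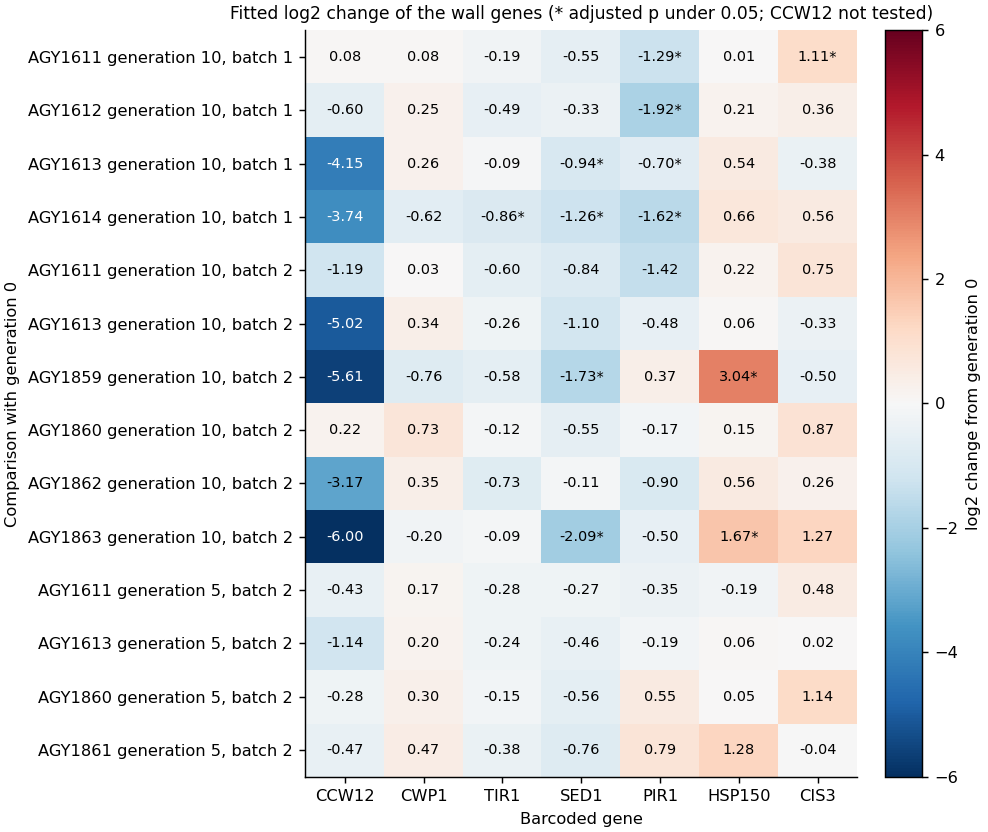
Fitted log2 change from generation 0 for each gene (columns) in each strain, generation and batch (rows); an asterisk marks an adjusted p under 0.05 in edgeR, and CCW12 was not tested. CCW12 ranges from -6.0 to 0.22 at generation 10, while the values of the other genes that lie farthest from 0 are HSP150 in AGY1859 (3.04) and SED1 in AGY1863 (-2.09).

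SED1 encodes a GPI mannoprotein that is the main structural wall glycoprotein of stationary-phase cells and is raised by stress. Its barcode was lower in 29 of 34 cultures at generation 10 than in the same replicate at generation 0. CCW12 and PIR1 had the same number. These counts take cultures that moved together, such as A and B, as separate, and no share of all names was computed for them. The median log2 ratio of SED1 was -1.03 (range -2.54 to 0.56), against -1.18 for PIR1. SED1 was called in 4 of 10 comparisons, each time lower, at percentiles from 8.95 to 23.3 among all names. At generation 0 it ranged from 115.3 to 169.8 CPM over both batches.

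In AGY1613 of batch 1, SED1 ended at 81.59, 67.9, 70.08 and 68.88 CPM in replicates A to D. All 4 lay below every generation 0 library, and the log2 change was -0.94 ± 0.29 (SE; edgeR adjusted p = 0.0104). In AGY1614 it ended at 62.74, 69.75, 34.42 and 63.14 CPM, a log2 change of -1.26 ± 0.31 (adjusted p = 0.000941), with replicate C apart from the others. In pooled pairs these adjusted p-values were 0.25 and 0.0707. The replicates of AGY1611 split by letter, at 40.26 and 57.55 CPM in A and B against 142.1 and 163.1 CPM in C and D (log2 change -0.55 ± 0.29, adjusted p = 0.12). AGY1612 showed the same split in smaller form, at 93.97 and 75.05 against 145.9 and 141.7 CPM (-0.33 ± 0.29, adjusted p = 0.376).

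In batch 2, SED1 ended at 40.75, 53.11 and 32.0 CPM in AGY1859 (log2 change -1.73 ± 0.40 SE, edgeR adjusted p = 0.0015). In AGY1863 it ended at 27.95, 20.58 and 41.33 CPM (-2.09 ± 0.40, adjusted p = 0.000147). Both sets lay wholly below generation 0, and both calls were made under each alternative tried. AGY1613 had 58.71, 68.72 and 70.92 CPM, also below generation 0, at a log2 change of -1.10 ± 0.39 that missed the threshold (adjusted p = 0.0591). The SED1 change in AGY1613 of batch 2 did pass in DESeq2 (0.0162), in the fit to its own libraries (0.0288), with scaling by library size alone (0.0411) and with the replicate as a block (0.0454). AGY1611 had 60.24, 38.49 and 124.9 CPM (adjusted p = 0.125). AGY1860 had 125.5, 118.8 and 43.0 CPM, with a low replicate 3 (adjusted p = 0.347). AGY1862 had 191.2, 112.0 and 70.05 CPM, spread to both sides of its start (-0.11 ± 0.38, adjusted p = 0.901), although CCW12 in the same cultures was down to 27.95 ± 3.68 CPM (SD, n = 3).

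CWP1 encodes a GPI mannoprotein placed at the birth scar of daughter cells. Its barcode was called in 0 of 10 generation 10 comparisons by edgeR and by DESeq2, and 2 of the 10 had an unadjusted p under 0.05. Fitted log2 changes ran from -0.76 in AGY1859 to 0.73 in AGY1860. Cultures of 1 strain moved apart: in AGY1613 of batch 1 it ended at 127.3 and 102.8 CPM in A and B but at 428.1 and 348.0 CPM in C and D, from a start of 210.2 ± 5.40 CPM (SD, n = 4). In AGY1613 of batch 2, replicates 1 to 3 ended at 300.3, 105.5 and 362.0 CPM. Each group thus spans its generation 0 level. Scaling by library size alone gave a call in AGY1614 (log2 change -1.14, adjusted p = 0.00195, against -0.62 and 0.0731). By the mean scaling factors, it lowered the changes of all names there by about 0.52 (log2). The fit to the libraries of that comparison alone also called AGY1614 (-0.56, adjusted p = 0.00671) and AGY1612 (0.28, adjusted p = 0.0368). In AGY1859, where same-numbered samples deviated together, the fit with the replicate as a block called CWP1 lower (-1.06, adjusted p = 0.0357).

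TIR1 encodes a GPI mannoprotein of the family induced by cold and by lack of oxygen. Its fitted log2 changes were below 0 in all 10 comparisons, from -0.86 to -0.09, and 25 of 34 cultures ended lower than they began. The count of cultures has the limits given for SED1. The only call was AGY1614 (-0.86 ± 0.36 SE, edgeR adjusted p = 0.0432). There it ended at 17.11 and 18.88 CPM in A and B and at 55.52 and 55.24 CPM in C and D, from 65.54 ± 6.67 CPM (SD, n = 4). A and B lay far below the start, and C and D were close to it. That call was lost without any of 9 libraries: replicate A or B of AGY1614 at generation 10 (adjusted p = 0.152 and 0.174), replicate A, B or C of AGY1614 at generation 0 (0.0863, 0.0729 and 0.0635), replicate A or C of AGY1611 at generation 0 (0.052 and 0.0523) and replicate B or C of AGY1612 at generation 10 (0.0514 and 0.0518). Pooled pairs gave an adjusted p of 0.348.

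PIR1 encodes a PIR protein needed for wall stability. It was called in 4 of 10 generation 10 comparisons, as often as SED1, and all 4 were in batch 1, where it was lower in every strain and its percentile among all names ran from 12.2 to 22.4. Its barcode began at 119.8 to 140.6 CPM in batch 1 and ended at 42.03, 29.73, 60.58 and 86.09 CPM in replicates A to D of AGY1611 (log2 change -1.29 ± 0.25 SE, edgeR adjusted p = 9.43e-05). AGY1612 ended at 27.52, 24.03, 39.82 and 42.56 CPM (-1.92 ± 0.25, adjusted p = 2.75e-07). These 2 strains, in which CCW12 stayed highest, had PIR1 well below its start in every culture. AGY1613 ended at 82.13, 73.08, 61.86 and 85.64 CPM (-0.70 ± 0.24, adjusted p = 0.0215). AGY1614 ended at 51.34, 50.35, 25.54 and 47.35 CPM (-1.62 ± 0.26, adjusted p = 5.48e-06). No batch 1 library at generation 10 reached the lowest at generation 0. For pooled pairs the call remained in AGY1612 (adjusted p = 0.0106) and AGY1614 (0.0173) and was lost in AGY1611 (0.0806) and AGY1613 (0.374). Without replicate C of AGY1613 at generation 10, the AGY1613 adjusted p was 0.0721.

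In batch 2, PIR1 was called in 0 of 6 strains by edgeR, with 1 unadjusted p under 0.05. AGY1611 ended at 48.37, 41.1 and 59.22 CPM, all below the batch 2 generation 0 range of 106.7 to 139.8 CPM; the log2 change of -1.42 ± 0.57 (SE) was close to that of batch 1, but its adjusted p was 0.0735 (0.0373 in DESeq2). AGY1613 ended at 135.9, 91.86 and 45.8 CPM, AGY1860 at 108.6, 120.8 and 98.29 CPM, and AGY1862 at 79.06, 51.14 and 68.09 CPM. AGY1862 lay below its start and AGY1860 near it. AGY1859 had the widest spread of the gene, with 331.9, 149.5 and 1.6 CPM, the last from 3 counts, which is 1.4% of its start (95% exact Poisson interval 0.289% to 4.12%). AGY1863 ended at 148.0, 38.05 and 77.46 CPM. In these 2 strains CCW12 was lowest of all, while PIR1 had replicates above its start.

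HSP150 encodes a heat-induced, heavily O-mannosylated PIR protein that is both secreted and bound to the wall. Its barcode was called in 2 of 10 generation 10 comparisons, higher in both. In AGY1859 it stood at 54.56, 38.56 and 37.46 CPM at generation 0 and at 678.7, 301.3 and 97.06 CPM at generation 10. Every later library lay above every earlier one, and the log2 change of 3.04 ± 0.60 (SE; edgeR adjusted p = 0.00022) exceeded that of 99.6% of names in that strain. In AGY1863 it went from 29.6, 20.29 and 32.42 CPM to 76.44, 83.58 and 102.1 CPM (1.67 ± 0.57, adjusted p = 0.0354, at the 99.5 percentile). When only the libraries of the comparison entered the fit, the adjusted p was 0.0526 in AGY1859 and 0.0531 in AGY1863. The AGY1863 call was also lost without replicate 2 or 3 of its generation 10 (0.0532 and 0.0735) or without replicate 1, 2 or 3 of its generation 0 (0.0807, 0.134 and 0.0681).

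In the other 8 comparisons HSP150 was not called, and its log2 changes ran from 0.01 to 0.66. This barcode was thinly and unevenly held at the start, at 20.32 to 56.54 CPM in batch 1 and 9.163 to 65.94 CPM in batch 2, a wider relative range than CCW12 had. In AGY1613 of batch 1 it ended at 78.87 and 81.1 CPM in A and B and at 12.59 and 35.35 CPM in C and D, so the pairs of replicates lay on both sides of the start.

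CIS3 encodes a PIR protein whose gene neighbours HSP150. It was called higher in AGY1611 of batch 1, from 44.73, 38.35, 41.46 and 42.87 CPM to 80.52, 90.64, 104.3 and 86.78 CPM (log2 change 1.11 ± 0.39 SE, edgeR adjusted p = 0.0189). All 4 cultures ended above every starting library. The adjusted p was 0.256 in pooled pairs and 0.0731 (log2 change 0.89) with scaling by library size alone. In AGY1613 and AGY1614 the letters split: AGY1613 ended at 12.51 and 11.79 CPM in A and B against 53.65 and 47.74 CPM in C and D, and AGY1614 at 22.82 and 33.57 against 103.3 and 73.66 CPM. In batch 2 edgeR and DESeq2 called CIS3 in 0 of 6 strains, with 0 unadjusted p-values under 0.05. AGY1863 ended at 87.95, 94.18 and 135.2 CPM, from 40.3 to 48.2 CPM, a log2 change of 1.27 ± 0.75 (adjusted p = 0.274). In AGY1859 replicate 1 had 0 counts, which allows at most 2.5 CPM (3 counts) and is at least 11.7-fold lower than its start, while replicates 2 and 3 had 69.09 and 10.13 CPM.

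**Figure D3:**
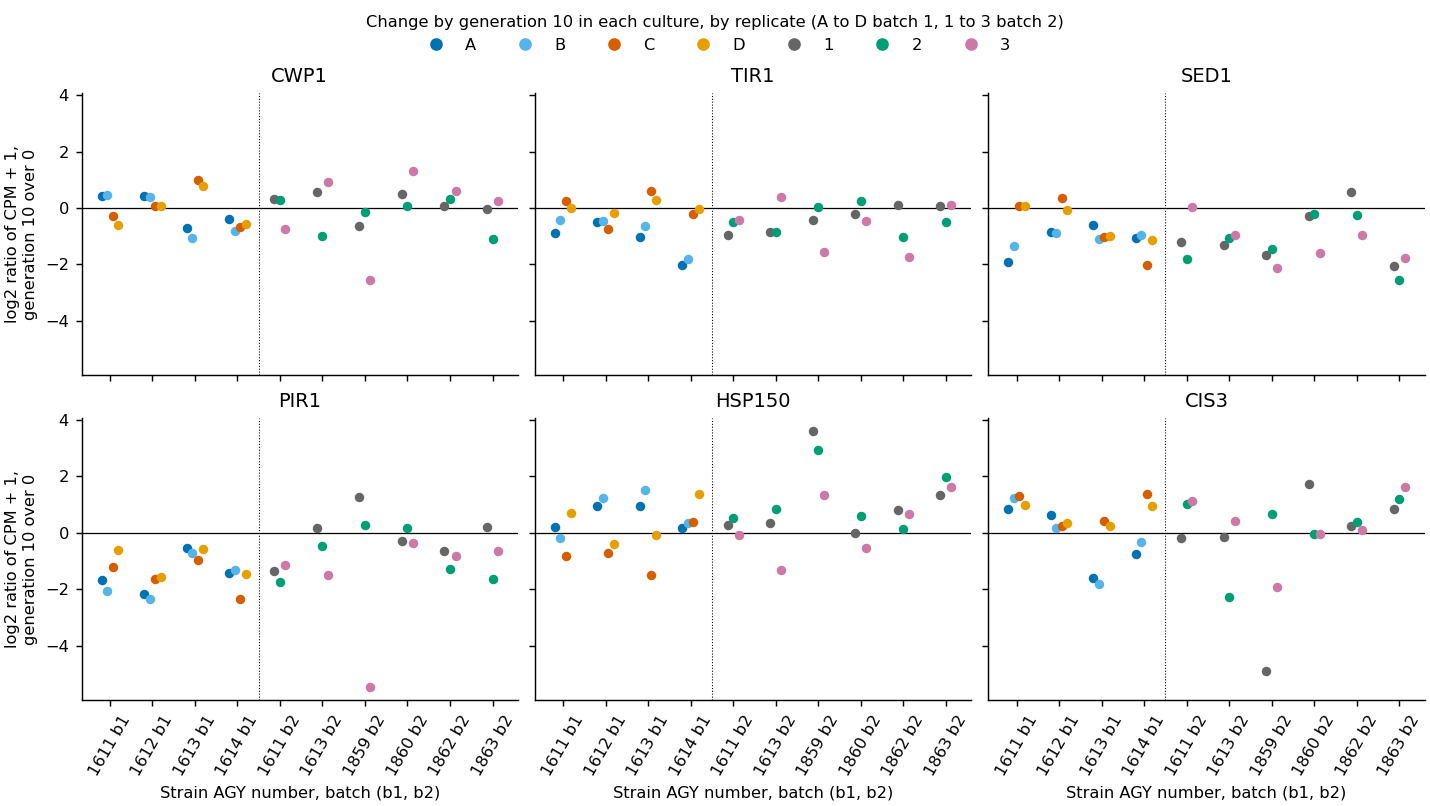
Log2 ratio of CPM + 1 at generation 10 over generation 0 in each culture for the 6 tested genes, by strain number and batch; colours mark replicates, with A and B in blues and C and D in oranges. PIR1 lies below 0 in all 16 cultures of batch 1, and the widest spread is in AGY1859, where PIR1 runs from -5.47 to 1.28 and CIS3 from -4.91 to 0.66.

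The comparison the set was assembled for is whether the strain dependence of CCW12 extends to the other genes. Differences between strains in the generation 10 change were tested for all 6 pairs of strains in batch 1 and for 5 strains against AGY1611 in batch 2. For CCW12 these differences ran from -4.22 ± 0.35 (SE; AGY1613 minus AGY1611, batch 1) to 0.41 ± 0.38 in batch 1 and from -4.82 ± 0.62 (AGY1863 minus AGY1611) to 1.41 ± 0.53 (AGY1860 minus AGY1611) in batch 2. Of the other 6 genes, 1 of 36 such tests passed in batch 1, PIR1 in AGY1613 minus AGY1612, at 1.22 ± 0.34 (edgeR adjusted p = 0.0123; 19% of all names were called in that pair, 12.8% higher). PIR1 was thus less lowered in AGY1613 than in AGY1612, where CCW12 differed by -3.55 ± 0.35, the opposite sign. The other 5 pairs held 0 calls by edgeR, where 23.7% of all names (AGY1612 minus AGY1611), 20% (AGY1613 minus AGY1611), 30% (AGY1614 minus AGY1611), 12.5% (AGY1614 minus AGY1612) and 26.9% (AGY1614 minus AGY1613) were called. Over all 36 tests, 6 had an unadjusted p under 0.05 and DESeq2 called 3. Besides PIR1 in AGY1613 minus AGY1612, DESeq2 called CIS3 in AGY1613 minus AGY1611 (-1.46, DESeq2 adjusted p = 0.0177), where CCW12 had the same sign. In edgeR that CIS3 difference was -1.49 (95% interval -2.61 to -0.37) and just missed the threshold (adjusted p = 0.0523). The third DESeq2 call was PIR1 in AGY1614 minus AGY1613 (-0.85, DESeq2 adjusted p = 0.0279; edgeR -0.92, adjusted p = 0.0513), a pair in which CCW12 differed by 0.41 ± 0.38. In AGY1614 minus AGY1612, CWP1 (-0.87, interval -1.70 to -0.04, adjusted p = 0.168) and SED1 (-0.93, interval -1.79 to -0.08, adjusted p = 0.15) had the sign of CCW12 and were not called. CWP1 there was called when only the libraries of the comparison entered the fit (adjusted p = 0.00349) and with scaling by library size alone (0.0183), and SED1 under the latter (0.016). In AGY1614 minus AGY1613, CWP1 (-0.88, interval -1.71 to -0.05, edgeR adjusted p = 0.108) had the sign opposite to CCW12 and was not called. Scaling by library size alone called it (adjusted p = 0.0203). In pooled pairs the PIR1 difference had an adjusted p of 0.458, and none of the 36 tests passed.

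Batch 2 gave 0 calls in 30 tests by edgeR, 3 with an unadjusted p under 0.05 and 1 call by DESeq2. Of all names, edgeR called 0.371% in AGY1613, 1.73% in AGY1859, 0.349% in AGY1860, 0.24% in AGY1862 and 0.393% in AGY1863, each minus AGY1611. The DESeq2 call was HSP150 in AGY1859 minus AGY1611, at 2.82 ± 0.80 (SE), with an adjusted p of 0.052 in edgeR and 0.00345 in DESeq2. CCW12 had the opposite sign in that pair, at -4.42 ± 0.60. PIR1 in the same pair, at 1.79 (95% interval 0.19 to 3.39, edgeR adjusted p = 0.289), also had the sign opposite to CCW12 and was not called.

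The intervals bound what such a difference could be. SED1 was the closest of the 6 genes to CCW12 in these same changes. For SED1, AGY1613 minus AGY1611 was -0.40 (95% interval -1.23 to 0.44) in batch 1 and -0.26 (-1.36 to 0.84) in batch 2. AGY1614 minus AGY1611 was -0.71 (-1.57 to 0.14) and AGY1863 minus AGY1611 was -1.25 (-2.35 to -0.14; adjusted p = 0.457). A difference of the size that CCW12 had in the same pairs, -3.81 or beyond, lies outside each of these intervals as fitted. A smaller one of the same sign does not. All batch 1 intervals here treat A to D as separate, so they are too narrow if A with B and C with D share a transformation. SED1 in AGY1611 of batch 1 had a mean log2 ratio of -1.63 in A and B but 0.07 in C and D. For TIR1 the interval of AGY1613 minus AGY1611 was -0.88 to 1.09 in batch 1, and for CWP1 it was -0.63 to 1.00. Of the 6 genes in that pair, CIS3 alone had an interval that left out 0, on the side of CCW12. That interval treats A to D as separate. CIS3 log2 ratios in AGY1613 were -1.62 and -1.81 in A and B but 0.42 and 0.26 in C and D. In batch 2 the CIS3 difference was -1.08 (-3.21 to 1.05), with AGY1613 log2 ratios of -0.14, -2.27 and 0.42 in replicates 1 to 3. Replicate 2 correlated with A and B, so batch 2 is not separate here.

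A joint test that the generation 10 change was equal in all strains of a batch passed for PIR1 in batch 1 (edgeR adjusted p = 0.0237; 48.1% of all names were called) and for none of the other 5 genes, whose adjusted p-values ran from 0.124 to 0.755. With the replicate as a block it was 0.0696, and in pooled pairs 0.535. In batch 2 it passed for HSP150 (adjusted p = 0.0449; 6.22% of all names were called), and SED1 was next (0.0799). The HSP150 call was lost with the replicate as a block (0.0733), with scaling by library size alone (0.0504) and without any of 25 of the 51 libraries, with adjusted p-values from 0.0503 to 0.184. Those libraries were all the generation 0 libraries of the 6 strains, replicate 2 of AGY1861 at generation 0, replicate 3 of AGY1611 and all replicates of AGY1613 at generation 5, and replicate 3 of AGY1613 and replicate 1 of AGY1859 at generation 10.

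**Figure D4:**
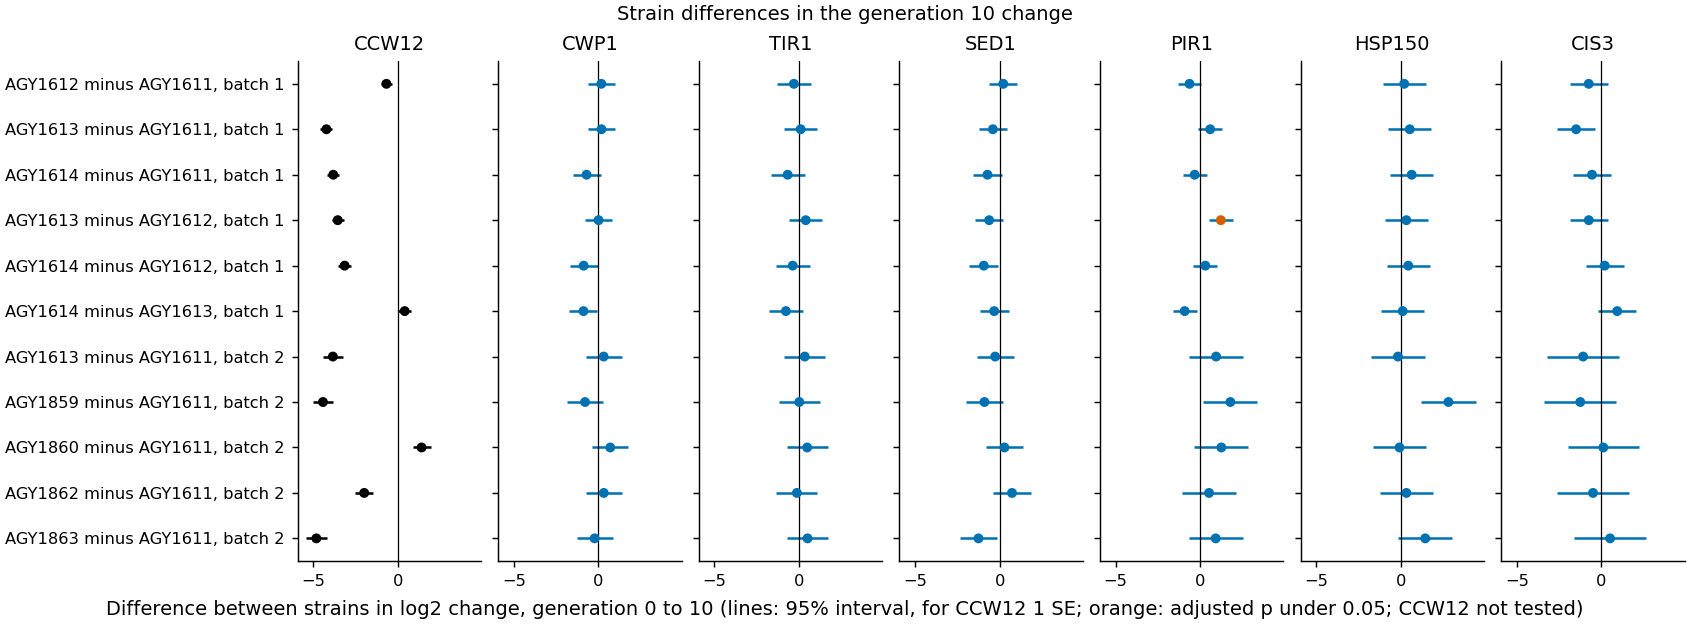
Difference between strains in the log2 change from generation 0 to 10 for each gene; lines are 95% intervals (1 SE for CCW12, which was not tested), and orange marks an adjusted p under 0.05. CCW12 spans -4.82 to 1.41, and the single called difference is PIR1 in AGY1613 minus AGY1612, at 1.22.

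At generation 5, CCW12 was at 131.1, 234.1 and 211.0 CPM in AGY1611 and at 70.84, 156.2 and 134.1 CPM in AGY1613. It was at 290.3, 133.2 and 201.2 CPM in AGY1860 and at 195.2, 155.4 and 213.7 CPM in AGY1861. All AGY1613 and AGY1861 libraries lay below the generation 0 range, and the fitted log2 changes were -0.43 ± 0.38 (SE), -1.14 ± 0.38, -0.28 ± 0.38 and -0.47 ± 0.38 in the order given. In AGY1613 the log2 level dropped further in the later 5 generations than in the first, with a departure from a constant rate of -2.75 ± 0.68. In AGY1611 that departure was -0.32 ± 0.65.

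Of the other 6 genes, edgeR called 0 in 24 tests at generation 5 in AGY1611 and AGY1613 (0% of all names were called in each), AGY1860 (7.32%) and AGY1861 (2.58%), and DESeq2 called 0. The single unadjusted p under 0.05 was HSP150 in AGY1861 (log2 change 1.28 ± 0.57 SE, adjusted p = 0.492), which went from 9.163, 29.58 and 65.94 CPM to 51.56, 130.2 and 72.17 CPM, with overlap. PIR1 in AGY1861 was at 261.5, 245.2 and 178.6 CPM, each above its start of 125.0 to 136.0 CPM (0.79 ± 0.56, adjusted p = 0.882; 0.0345 in the fit to the libraries of that comparison alone). SED1 was below 0 in 11 of 12 cultures, with a median log2 ratio of -0.43. Scaling by library size alone called SED1 (adjusted p = 0.00162) and TIR1 (0.0235) in AGY1861. By the mean scaling factors, it lowered all changes there by about 0.91 (log2). That shift was larger than the PIR1 rise of 0.79, so the PIR1 rise there depended on the TMM scaling. No strain difference at generation 5 was called by edgeR or DESeq2 in 24 tests (0%, 0.0218%, 1.4% and 1.53% of all names for AGY1613, AGY1860 and AGY1861 minus AGY1611 and AGY1861 minus AGY1860), and no departure from a constant rate in 18 tests (0.0655% of all names in AGY1611 and 0% in AGY1613 and AGY1860), with 0 unadjusted p-values under 0.05 in both.

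**Figure D5:**
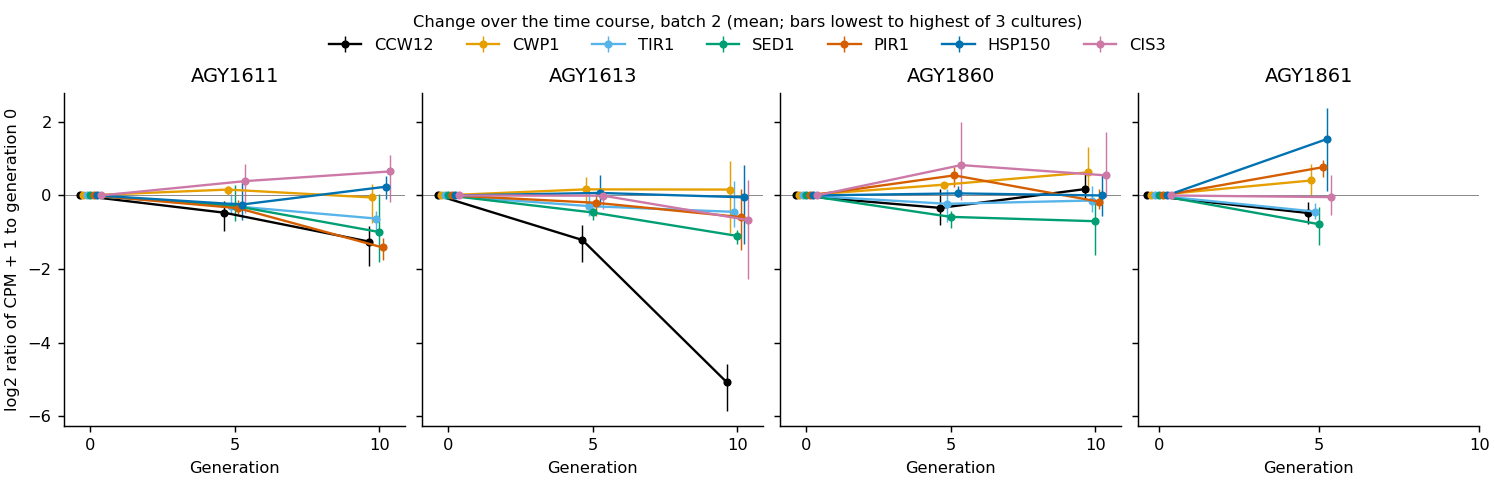
Mean log2 ratio of CPM + 1 to generation 0 at generations 5 and 10 in batch 2 for the 7 genes in 4 strains; bars run from the lowest to the highest of 3 cultures, and AGY1861 has no generation 10. CCW12 in AGY1613 is already the lowest gene at generation 5 and lies far below the others at generation 10, while in AGY1860 it stays among them.

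AGY1611 and AGY1613 were grown in both batches. The CCW12 log2 change differed by -1.29 ± 0.44 (SE; batch 2 minus batch 1) in AGY1611 and by -0.89 ± 0.52 in AGY1613. For the other 6 genes, edgeR and DESeq2 called 0 of 12 differences between batches (0% of all names were called in either strain), with 0 unadjusted p-values under 0.05. PIR1 in AGY1611 differed by -0.16 (95% interval -1.42 to 1.11) and SED1 in AGY1613 by -0.18 (-1.11 to 0.76).

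Likeness to CCW12 was measured as the root mean square difference in log2 change over the 10 generation 10 comparisons, among 4321 names with at least 50 counts on average at generation 0 in both batches. This measure counts the size of a change as well as its strain pattern, so a near rank need not mean a shared strain dependence. SED1 was the closest of the 6 genes, at rank 174, followed by PIR1 (902), TIR1 (956), CWP1 (1539), CIS3 (2641) and HSP150 (4283). The median name differed from CCW12 by 3.79, so only HSP150 and CIS3 lay in the farther part of the order. The 5 nearest names were SKO1 (difference 1.61), a transcription factor of the osmotic stress response, RAD1 (1.91), a DNA repair nuclease subunit, MRF1 (1.98), a mitochondrial translation release factor, RUD3 (2.00), a Golgi protein, and YML6 (2.01), a mitochondrial ribosomal protein. SKO1 had log2 changes of -4.10 in AGY1613 and -5.09 in AGY1614 of batch 1 and 1.47 in AGY1860. It parted from CCW12 in AGY1612 (-2.38, against -0.60 for CCW12). It did so too in batch 2, in AGY1613 (-2.63, against -5.02) and AGY1859 (-2.33, against -5.61). MRF1 was lower in every comparison, also at -1.90 in AGY1611 of batch 1 and -1.82 in AGY1860, where CCW12 was 0.08 and 0.22. Even the nearest name was thus 1.61 away on average, whereas SED1 had a neighbour at 0.41, SIM1, a SUN-family wall protein. The nearest to CWP1 was RPL15A (0.25), to TIR1 THP1 (0.20), to PIR1 VPS35 (0.25), to HSP150 POG1 (0.48) and to CIS3 COT1 (0.27).

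Of 24 other wall mannoprotein and PIR genes, 18 were in the tables. Over the 10 generation 10 comparisons they made 16 lower and 8 higher calls in 180 tests, or 13.3%, against 28.7% of 45934 tests over all names. Their median log2 change per comparison ran from -0.48 to 0.20, against 0.01 to 0.09 for all names. DAN1, a mannoprotein made without oxygen, accounted for 8 of the 16 lower calls and had log2 changes from -1.63 to -0.89. PST1, a GPI protein raised by wall stress, was called higher in 3 comparisons (from 0.80 to 0.95). HPF1 was called lower in 2, AGY1613 (-1.68) and AGY1614 (-1.99) of batch 1. PIR5, a PIR-family gene, was called higher in AGY1611 of both batches, at 1.66 and 1.52. Of the same family in those comparisons, CIS3 was 1.11 and 0.75, HSP150 0.01 and 0.22, and PIR1 -1.29 and -1.42.

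Of 18 genes that modify the wall or its proteins, 16 were in the tables. They made 29 lower and 24 higher calls in 160 tests, or 33.1%. KEX2, whose protease trims PIR proteins, was called lower in 9 of 10 comparisons, with log2 changes from -3.12 to -0.76. It was lowest in AGY1612 (-3.12), where PIR1 was at -1.92, HSP150 at 0.21 and CIS3 at 0.36. A link between KEX2 and the PIR genes was not tested. EXG1, the main exo-glucanase, was called higher in 7 comparisons (log2 changes from 0.14 to 0.95 over all 10), and BGL2, a glucan-remodelling enzyme, in 5 (0.05 to 1.27). GAS3, of the glucanosyltransferase family, was called lower in 6. With batch 1 in pooled pairs and batch 2 left unpooled, the calls of the 2 lists were 14 and 26. The numbers of calls given for single genes of the 2 lists are from the unpooled fit.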

How the data were processed

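Barcodes amplified from plasmid DNA with 20 PCR cycles were sequenced, per the labels' protocols. The authors deposited whole-number counts per gene barcode in 2 tables, 1 per batch, holding 83 libraries; the aligner and counter are not given in the sources used here. Counts measure a barcode relative to the rest of the pool. The empty-vector row was left out. Each batch was fitted with edgeR 4.0.16 (R 4.3.3, limma 3.58.1): TMM scaling, filterByExpr (count minimum 10), a coefficient for each strain at each generation, the quasi-likelihood test, and Benjamini-Hochberg adjustment over 4615 names in batch 1 and 4579 in batch 2, with a threshold of 0.05. A fit of all 83 libraries served only the difference between batches. Intervals are 95%, per-culture ratios use CPM + 1, and a count of 0 is bounded by 3 counts. P-values measure only the spread between these samples.

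Alternatives were DESeq2 1.42.0, other scaling and filters, a fit per comparison, the replicate as a block, pooled pairs (A with B, C with D), and leaving out each library. The share of all names called is given for the main fit and not for these alternatives. The scripts were tested on simulated data. The members and lists were chosen with earlier results of these data known. Genes of the wall lists were named by a rule: up to 4 per list, called in the most comparisons, ties going to the larger absolute mean change. The names nearest to each gene were those with the smallest root mean square difference. The same replicate number marked samples that deviated together (every correlation over 0.1) in 4 of 14 strain and generation groups: AGY1859, AGY1863 and both times of AGY1860. Among the 99 pairs of libraries within a group, none agreed within sampling noise.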

Additional observations from a re-analysis of the deposited data

Results flagged for a closer look

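In AGY1614 of batch 1, replicate C stood apart from the other 3 cultures for PIR1, with a log2 ratio of -2.36 against -1.46 to -1.31, and for SED1, with -2.02 against -1.12 to -0.97. Dixon's test was applied to 28 groups of 4 cultures and marked these 2; chance marks about 5% of groups. CCW12 in that culture was not marked.

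The PIR1 change passed the test of a difference between strains of batch 1, at 1.22 (log2) for AGY1613 minus AGY1612 and in the joint test (edgeR adjusted p = 0.0237). Pooling A with B and C with D ended both calls (adjusted p = 0.458 and 0.535), and the replicate block ended the joint call (0.0696). The HSP150 change passed the joint test in batch 2 (edgeR adjusted p = 0.0449), a call that the replicate block also ended (0.0733).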

How the results depend on the processing

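No result changed direction among those called. In pooled pairs (A with B, C with D), which leave 2 samples per group, the 8 calls of batch 1 at generation 10 became 2. The strain differences of batch 1 went from 1 to 0, and its joint test from 1 to 0. Calls in the 2 wall gene lists went from 24 to 14 and from 53 to 26. These list totals include batch 2, which was not pooled, so all of the loss was in batch 1. Scaling by library size alone gave 5 strain differences and 3 joint calls in batch 1, 2 calls at generation 5 and 0 joint calls in batch 2. Fits to the libraries of a comparison alone gave 3 strain differences in batch 1, 1 call at generation 5 and 1 strain difference there. DESeq2 gave 3 strain differences in batch 1 and 1 in batch 2; median-of-ratios factors and a minimum mean of 50 counts each gave 1 in batch 2. With the replicate block, the joint tests gave 0 calls in batch 1 (PIR1, adjusted p = 0.0696) and 0 in batch 2 (HSP150, adjusted p = 0.0733); the 4 calls of batch 2 at generation 10 became 6, adding SED1 in AGY1613 (adjusted p = 0.0454) and CWP1 in AGY1859 (0.0357). The block ended no other call. The causes were not tested.

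Leaving out 1 library gave 7 to 9 calls in batch 1 and 3 to 6 in batch 2 at generation 10, 1 to 3 strain differences in batch 1 and 0 to 2 in batch 2, and 1 to 2 joint calls in batch 1 (2 without replicate B or C of AGY1613 at generation 10) and 0 to 2 in batch 2. The strain differences of batch 1 moved without any of 13 generation 10 libraries, all but AGY1612 A and C and AGY1614 D. Those of batch 2 became 2 without replicate 2 or 3 of AGY1859 at generation 10, and 1 without replicate 2 or 3 of AGY1613, any replicate of AGY1860 or replicate 1 or 2 of AGY1862 at generation 10, or replicate 1 or 3 of AGY1861 at generation 0. The joint calls of batch 2 became 2 without replicate 2 of AGY1611 or replicate 3 of AGY1611, AGY1859, AGY1860, AGY1862 or AGY1863 at generation 10, and 0 without any of the 25 libraries named for HSP150. The list calls ran from 22 to 27 and from 48 to 55. CCW12 in AGY1859 ran from -7.35 (without replicate 3 of generation 10) to -5.17. Low counts at generation 10 limit CCW12 in AGY1613, AGY1859 and AGY1863 of batch 2.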
